A study of Arabidopsis thaliana with 10 samples.

Results

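The cytosolic small ribosomal subunit of Arabidopsis is described here through 60 of its protein genes, taken as a fixed list of locus identifiers out of 27432 nuclear protein-coding genes. The rule for membership uses gene identity alone and no measured value, but the list was chosen with earlier results of these data known. A gene counted as having a peak when the authors had assigned one to it. In the L1 list 9 of the 60 genes had a peak (15%), against 25.7% of other nuclear protein-coding genes. In L4 7 had one (11.7%), against 24.5%. The L3 list held no nuclear peak, so its count of 0 says nothing about these genes. The files and the gene name table give ribosomal protein names to only some of the loci. The others are therefore called by their identifiers, and their place on the list rests on the list itself.

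The data were chromatin immunoprecipitation peaks from seedlings germinated for up to 12 days on sucrose medium, all carrying a YFP-LIMYB transgene. An antibody against GFP was used on formaldehyde-crosslinked chromatin from isolated nuclei. The labels describe all 10 samples as LIMYB overexpression and split them by line: L1 (2 samples), L3 (4 samples) and L4 (4 samples). All samples carry the transgene, and no input or control immunoprecipitation is among them. The labels do not name the transgene's promoter or say whether the lines arose from separate insertions. Whole seedlings were used, so tissues are not separated.

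The small subunit binds messenger RNA and holds the site where codons are read. In Arabidopsis most cytosolic ribosomal proteins are encoded by several close gene copies, which are expressed most strongly in dividing tissue. LIMYB, which has a MYB domain, acts below the receptor kinase NIK1. In this pathway RPL10, a protein of the large subunit, carries the signal into the nucleus, where it meets LIMYB. The question put to these data was whether, and where, LIMYB chromatin peaks fall at the small-subunit genes.

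Each line had 1 peak list with no column for a sample, so no value per peak has a replicate error and no test between lines was possible. L1 held 9604 nuclear peaks and L4 held 8952. All 12 peaks of L3 lay on plastid DNA. Sequencing depth is unknown. The fold given for a peak is the authors' deposited fold enrichment, a ratio of the peak's signal to a background that the headers do not define. The pileup is the number of overlapping fragments at the peak's summit. All positions are those of the files, whose genome build no source used here gives. They do not say whether a peak inside a gene lies in an exon or an intron.

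Peaks assigned to the 60 listed genes were few. In L1, 15% of the 60 genes (9 genes, 95% Wilson interval 8.1 to 26.1) had an assigned peak, against 25.7% of all other nuclear genes. In L4, 11.7% had one (7 genes, 5.77 to 22.2), against 24.5% of other genes. In both lines 3.33% had one (2 genes, 0.919 to 11.4), against 14.3%. The L4 interval and the interval for both lines lie below the shares of other genes, and the L1 interval includes it. These intervals cover counting error only, and neighbouring or related genes are not independent.

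All 19 peaks assigned to small-subunit genes lay within 1000 bp of the gene, the farthest at 867 bp. The share of other nuclear peaks with a deposited shortest distance of at most 1000 bp was 58.5% in L1 and 60.3% in L4. For a peak inside a gene that distance runs to the nearer gene end, so peaks deep inside long genes are left out. The small-subunit genes with a peak, at most 1989 bp long, cannot hold such a peak, so these shares are not a like comparison. In the shares of genes that follow, a peak overlapping its gene always counted as within the limit. With peaks farther than 3000 bp set aside for every gene, the shares of other genes were 24.3% in L1, 23% in L4 and 12.9% in both lines. The small-subunit shares stayed as they were, and their intervals in L4 and in both lines still lay below those of other genes. A limit of 1000 bp, chosen after the data were seen, just beyond the farthest of the 19 peaks, could lower only the shares of other genes. They were then 20.5% in L1, 19.9% in L4 and 10.5% in both, within the intervals of the small-subunit genes.

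**Figure D1:**
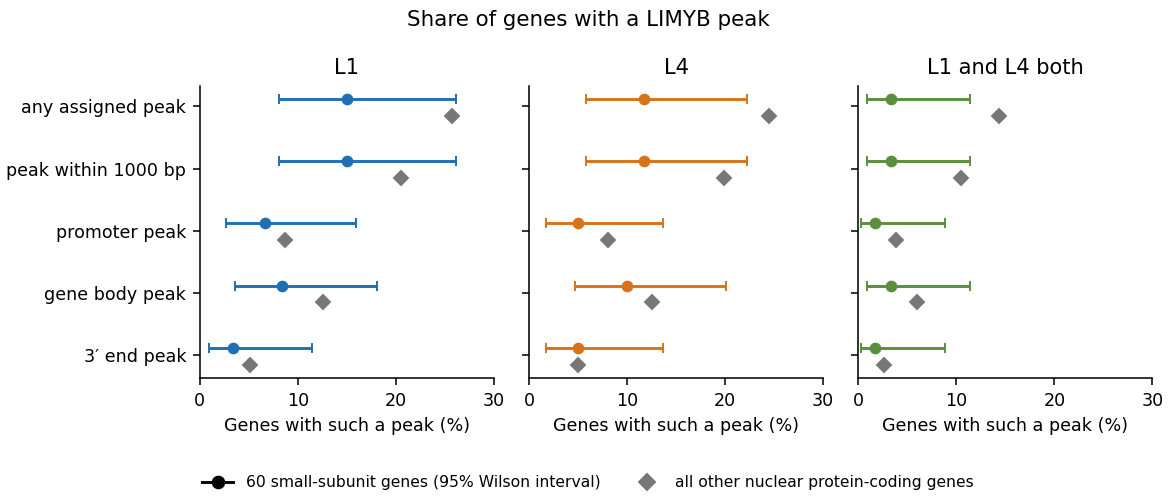
Percentage of the 60 small-subunit genes with each kind of peak (circles, with 95% Wilson intervals) and of all other nuclear protein-coding genes (diamonds) in L1, in L4 and in both lines. The circles lie left of the diamonds except for 3′ end peaks in L4, where 5% of small-subunit genes stand beside 4.95%.

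A promoter peak was one that touched the promoter window, which runs 1000 bp upstream and 100 bp downstream of the assigned gene's 5′ end. In L1, 4 of the 60 genes had one (6.67%, interval 2.62 to 15.9), against 8.67% of other genes. They were RPS5B, AT3G47370, AT3G57490 and AT3G60770. In L4, 3 had one (5%, 1.71 to 13.7), against 8.05% of other genes: RPS5B, RPS15 and PFL. RPS5B was the only small-subunit gene with a promoter peak in both lines (1.67%, 0.295 to 8.86), against 3.83% of other genes. Each of the 3 intervals includes the share of other genes.

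RPS5B (AT2G37270) is the copy of the ribosomal protein S5 gene paired with RPS5A, the gene also known as AML1 for its Minute-like growth defect. The gene runs from 15647677 to 15649221 on the minus strand of chromosome 2. Its promoter peak spanned 15649328 to 15649560 in L1, with 19 fragments, a fold of 9.13 and a −log10 q of 10.62. In L4 the peak spanned 15649284 to 15649528, with 21 fragments, a fold of 14.19 and a −log10 q of 15.48. The peaks overlapped by 201 bp, and their summits, 189 and 191 bp upstream of the 5′ end, lay 2 bp apart. These were the highest folds among peaks assigned to the 60 genes in each list. Even so, they stood at the 57th percentile of nuclear folds in L1 and the 71.3rd in L4.

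RPS5B also carried a second peak inside the gene in each line, but at different places. In L1 it spanned 15648485 to 15648684 (15 fragments, fold 7.21, −log10 q 7.08), with its summit 658 bp downstream of the 5′ end. In L4 it spanned 15647885 to 15648088 (16 fragments, fold 11.59, −log10 q 10.54), with its summit at 1166 bp. These inside peaks were thus separate sites. RPS5A (AT3G11940) had no promoter peak in either line. It had an L1 peak inside the gene on chromosome 3, 3778755 to 3778986, with 17 fragments and a fold of 8.88. That summit lay 691 bp downstream of the RPS5A 5′ end, close to the 658 bp of the L1 peak inside RPS5B. Whether reads were shared between these gene copies was not tested.

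The other promoter peaks were each found in 1 line. AT3G57490 had 25 fragments in L1, the most in any peak assigned to the 60 genes, with a fold of 8.99 and a −log10 q of 13.78. Its peak lay at 21281101 to 21281345 on chromosome 3, with the summit 281 bp upstream of the 5′ end. AT3G60770 had a summit 357 bp upstream (chromosome 3, 22462015 to 22462214, 13 fragments, fold 6.79, −log10 q 5.85). AT3G47370 had one 511 bp upstream (chromosome 3, 17455126 to 17455325, 15 fragments, fold 6.36, −log10 q 6.38). No L4 peak overlapped any of these 3 sites.

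The L4 promoter peaks outside RPS5B lay farther from the 5′ end. RPS15 (AT1G04270), whose protein sits in the head of the subunit, had a summit 757 bp upstream (chromosome 1, 1143658 to 1143876, 13 fragments, fold 8.02, −log10 q 6.73). PFL (AT1G22780) encodes a ribosomal protein S18, and its mutants have pointed first leaves. Its summit lay 776 bp upstream (chromosome 1, 8066983 to 8067197, 13 fragments, fold 9.7, −log10 q 7.68). Neither site overlapped an L1 peak. None of the 7 peaks upstream of a small-subunit gene reached its 5′ end, as the map of peaks around the genes shows.

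**Figure D2:**
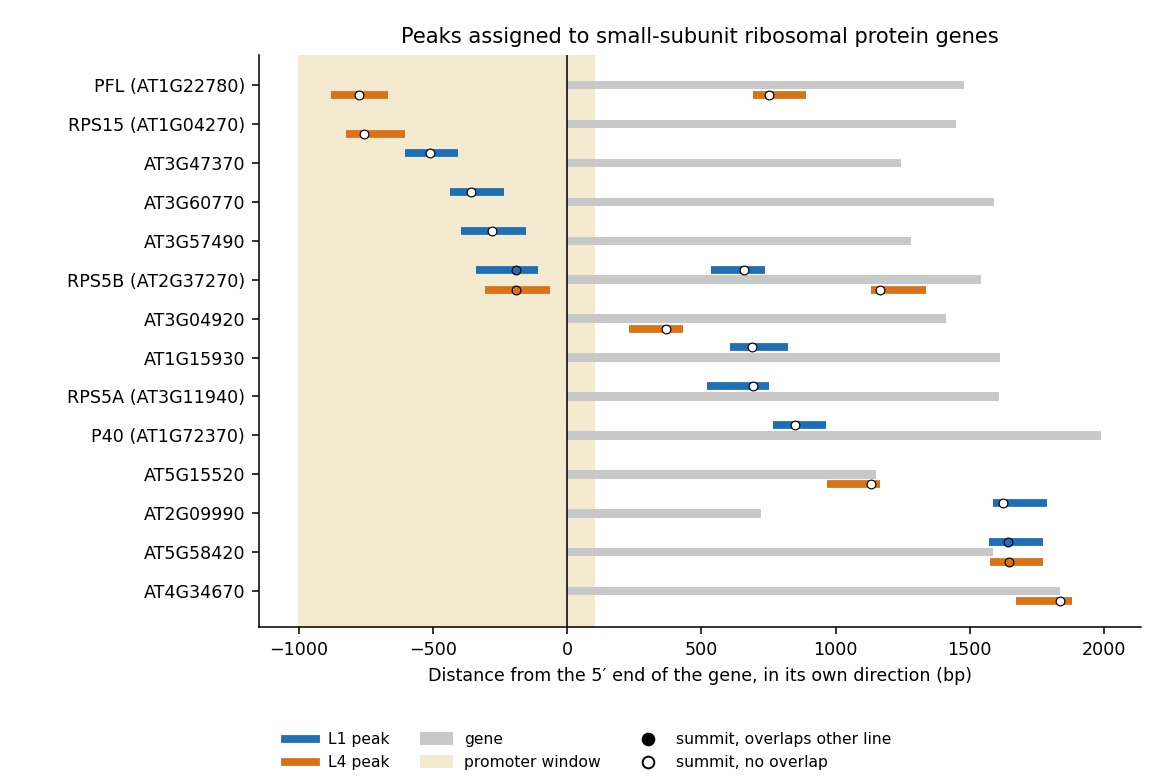
Every peak assigned to a small-subunit gene, drawn as a coloured bar with its summit (circle) by distance in bp from the 5′ end of the gene (grey bar, the gene to its 3′ end). L1 peaks stand above and L4 peaks below each gene, the shaded band is the promoter window, and a filled circle marks the 2 sites, at RPS5B and AT5G58420, where the peaks of L1 and L4 overlap.

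Gene body peaks overlapped the assigned gene between its 5′ and 3′ ends. In L1, 5 of the 60 genes had one (8.33%, interval 3.61 to 18.1), against 12.6% of other genes, and in L4 6 had one (10%, 4.66 to 20.1), against 12.5%. In both lines 2 had one (3.33%, 0.919 to 11.4), against 5.97%. The intervals include the shares of other genes. Of the 19 peaks, 7 lay wholly inside a gene, with summits from 26% to 75.5% of the way along it.

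Besides the S5 genes, L1 had inside peaks at P40 and AT1G15930. P40 (AT1G72370) encodes ribosomal protein SA, a relative of the mammalian laminin receptor precursor that is part of the small subunit. Its peak at 27243965 to 27244164 on chromosome 1 had 13 fragments, a fold of 6.79 and a summit 849 bp downstream of the 5′ end. AT1G15930 had the lowest fold of the L1 set, 5.46 with 13 fragments, at 5472008 to 5472223 on chromosome 1. In L4, AT3G04920 had an inside peak with 15 fragments and a fold of 10.56 (chromosome 3, 1361113 to 1361314), its summit 367 bp downstream of the 5′ end. PFL had a second L4 peak inside the gene at 8068555 to 8068754, with 13 fragments and a fold of 10.12. None of these 4 sites was shared by the lines.

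A 3′ end peak touched a window that reaches 100 bp upstream and 1000 bp downstream of the assigned gene's 3′ end. In L1, 2 genes had one (3.33%, interval 0.919 to 11.4), against 5.08% of other genes. In L4, 3 had one (5%, 1.71 to 13.7), against 4.95%, and in both lines 1 had one (1.67%, 0.295 to 8.86), against 2.57%. AT5G58420 was the gene with such a peak in both lines. In L1 it spanned 23621079 to 23621278 on chromosome 5 (16 fragments, fold 7.34, −log10 q 7.64), and in L4 23621082 to 23621281 (14 fragments, fold 7.22, −log10 q 6.66). The peaks overlapped by 197 bp, and their summits lay 5 bp apart, 53 and 58 bp beyond the 3′ end. The fold stood at the 27.2nd percentile of nuclear peaks in L1 and the 7.48th in L4, so a site found in both lines ranked low in each.

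The remaining 3′ sites were found in 1 line each. AT4G34670 had an L4 peak across its 3′ end (chromosome 4, 16550292 to 16550498, 14 fragments, fold 10.9). AT5G15520 had one with 10 fragments and a fold of 7.78 (chromosome 5, 5037006 to 5037205), the lowest fragment count among the 19 peaks. AT2G09990 had an L1 peak beyond its 3′ end, the summit at 904 bp (chromosome 2, 3782916 to 3783115, 13 fragments, fold 6.79).

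Among genes that had a peak, the places of the peaks at small-subunit genes could not be told from those at other genes beyond counting error. In L1, 4 of 9 had a promoter peak (44.4%, interval 18.9 to 73.3), against 33.6% of 7186 other assigned nuclear genes. In L4 3 of 7 did (42.9%, 15.8 to 75), against 32.8% of 6839. Body peaks were found at 5 of 9 genes in L1 (55.6%, 26.7 to 81.1), against 48.3%, and at 6 of 7 in L4 (85.7%, 48.7 to 97.4), against 50.5%. The 3′ end peaks were at 2 of 9 in L1 (22.2%, 6.32 to 54.7), against 19.7%, and at 3 of 7 in L4 (42.9%, 15.8 to 75), against 20.3%. All 6 intervals include the share of other assigned genes. The 14 small-subunit genes with a peak in either line had a median length of 1512 bp (722 to 1989), against 1954 bp for other assigned nuclear genes.

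Most of the 19 peaks were weak within their lists. In L1 the 10 peaks had a median fold of 7 (5.46 to 9.13) and a median of 15 fragments, against medians of 8.72 and 19 for other nuclear peaks. Of these 10 peaks 3 had folds above the median of the list, at RPS5B, AT3G57490 and RPS5A. In L4 the 9 peaks had a median fold of 10.1 (7.22 to 14.2) and a median of 14 fragments, against 11.7 and 17. The RPS5B promoter peak was the only one of the 9 above the median of the list. No peak assigned to any of the 60 genes had a fold above 9.13 in L1 or 14.19 in L4, while the highest nuclear folds of the lists were 36.2 and 41.6.

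The peaks were also narrow. Of the small-subunit peaks 6 of 10 in L1 and 3 of 9 in L4 were 200 bp wide, the narrowest width in the lists. Among other nuclear peaks 17.5% in L1 and 15.9% in L4 had that width. The L1 peaks at P40, AT2G09990 and AT3G60770 had identical values, with 13 fragments, a fold of 6.79 and a −log10 q of 5.85. In all 261 nuclear L1 peaks had exactly these values.

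**Figure D3:**
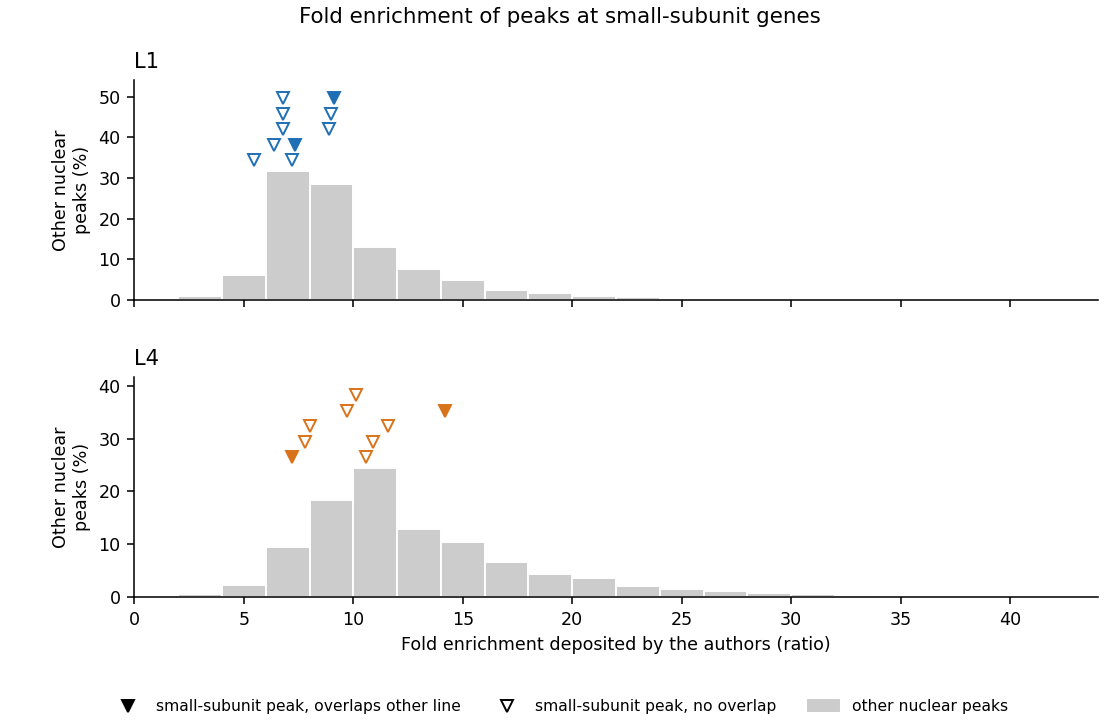
Deposited fold enrichment of the peaks at small-subunit genes (triangles, stacked for legibility, filled where the peaks of L1 and L4 overlap) above the distribution of all other nuclear peaks (grey bars, percent per 2 units of fold) in L1 and L4. The triangles lie between 5.46 and 9.13 in L1 and between 7.22 and 14.19 in L4, in the lower and middle part of each distribution.

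Sites at small-subunit genes were seldom found in both lists. In L1, 2 of 10 peaks overlapped an L4 peak (20%, interval 5.67 to 51), against 45% of other nuclear peaks. In L4, 2 of 9 overlapped an L1 peak (22.2%, 6.32 to 54.7), against 48.2%. The wide intervals include both shares. When other peaks were limited to folds no higher than the highest at a small-subunit gene, a comparison added after the data were seen, their shares were 33.2% in L1 and 42.2% in L4. Of the 14 genes with a peak, 7 had one in L1 alone (50%, 26.8 to 73.2), against 31.7% of other genes with a peak in either line. In L4 alone 5 had one (35.7%, 16.3 to 61.2), against 28.2%. Both intervals include the share of other genes.

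For 46 of the 60 genes (76.7%, interval 64.6 to 85.6) neither line had an assigned peak, against 64.2% of other nuclear genes. They include both S6 genes, RPS6 (AT4G31700) and EMB3010 (AT5G10360), whose protein is the classic substrate of S6 kinase downstream of the growth regulator TOR. They also include RPS13A, in which mutations give the same pointed leaves as in PFL, and RPS18C, a second S18 gene. RPSAb, a second gene for protein SA, had none either. RPS10B, RPS15A and EMB1080 were likewise without a peak, and 37 genes of this set carry only an identifier. A missing peak means that none was called and assigned, and with depth unknown it does not show that LIMYB was absent.

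Some peaks over small-subunit genes had been assigned to their neighbours. Positions were available for the 14 genes with a peak, and all peaks over them were searched, whichever gene they were assigned to. At RPS15 an L1 peak with 21 fragments and a fold of 10.96 (chromosome 1, 1141468 to 1141684) lay across the 3′ end, 22 bp short of it at the summit, and was assigned to AT1G04260. At AT1G15930 an L4 peak with a fold of 6.91 (chromosome 1, 5472504 to 5472703) lay inside the gene and was assigned to AT1G15940. It did not overlap the L1 peak in the same gene.

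A site beyond AT3G04920 was found in both lines. Peaks at 1362633 to 1362834 in L1 (16 fragments, fold 8.35) and 1362626 to 1362876 in L4 (29 fragments, fold 16.29) overlapped each other on chromosome 3. Their summits lay 490 bp beyond the AT3G04920 3′ end, and the authors assigned them to AT3G04930. Beyond AT5G58420 an L4 peak with 36 fragments and a fold of 18.75 (chromosome 5, 23621418 to 23621751) had its summit 489 bp past the 3′ end and inside EXO70B1. Counted this way, 4 of the 14 genes had a 3′ end peak in L1 (28.6%, interval 11.7 to 54.6), against 21.2% of other genes with positions in the files. In L4 4 of 14 also had one, against 20.6%, and in both lines 2 did (14.3%, 4.01 to 39.9), against 11%. The other 46 genes could not be counted this way.

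For the genes without positions in the files, the next gene on either side could still be examined. At 7 of these 46 genes (15.2%, interval 7.57 to 28.2) a neighbour had a peak on the side facing the small-subunit gene. The share was 22.9% among other genes without a peak of their own, which the interval includes. Both lines had a peak on the side of AT5G04790 that faces AT5G04800 on chromosome 5. The peaks spanned 1387415 to 1388040 in L1 (40 fragments, fold 16.26) and 1387405 to 1387825 in L4 (59 fragments, fold 27.57). The latter was the highest such fold in L4. These overlapping peaks stood at the 93.8th and 97.7th percentiles of their lists and lay downstream of the AT5G04790 3′ end. Beside RPS6, the L1 peak with the highest such fold (16.71, 32 fragments) lay 340 bp upstream of AT4G31690 (chromosome 4, 15345501 to 15345866). No L4 peak overlapped it. The other 5 genes were AT2G17360, AT5G09510, AT3G10610, AT1G34030 and AT5G28060, with neighbour peaks in 1 line each and folds from 6.27 to 10.71. How far these peaks lay from the small-subunit genes, or whether they overlapped them, was not measured.

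The 60 genes do not hold every small-subunit gene, and other loci had stronger sites. A second list of 35 further small-subunit loci, drawn from general knowledge of the gene families and not annotated in the files, was examined in the same way. Of the 35, 5 had a promoter peak in L1 (14.3%, interval 6.26 to 29.4), 4 in L4 (11.4%, 4.54 to 26) and 3 in both (8.57%, 2.96 to 22.4). These intervals include the shares of other genes given above. Any assigned peak was found at 28.6% of the 35 in L1 (interval 16.3 to 45.1) and 25.7% in L4 (14.2 to 42.1). In both lines 14.3% had one (6.26 to 29.4). The shares of other genes were 25.7%, 24.5% and 14.3%, so the low shares above were seen in the list of 60 and not in these 35 loci. The intervals of the lists overlap. AT5G59850 had an L1 fold of 14.8 and an L4 fold of 28.46, with summits 767 and 757 bp upstream of the 5′ end. AT4G39200 had 8.88 and 23.35, and AT1G58380 (XW6) had 6.91 and 30.12. In each of these 3 the peaks of L1 and L4 overlapped. AT3G56340 had an overlapping pair inside the gene, with an L1 fold of 22.48 and an L4 fold of 22.57.

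The remaining promoter peaks of the 35 loci were found in 1 line each. AT3G53890 had a fold of 8.5 and AT5G09500 one of 6.27 in L1, and AT5G47930 had 19.74 in L4. The AT5G09500 peak is the one counted above as facing AT5G09510.

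Genes of the large subunit and of related regulators were counted in the same way. Of 20 large-subunit genes found by name, 1 had a promoter peak in L1, RPL23AB with a fold of 8.86, and 1 in L4, RPL5B with 11.68. Each is 5% (interval 0.888 to 23.6), which includes the shares of other genes. None had one in both lines (0 of 20, interval up to 16.1%). Any assigned peak was found at 3 of the 20 in L1 (15%, interval 5.24 to 36) and 3 in L4 (15%, 5.24 to 36). In both lines 1 had one (5%, 0.888 to 23.6). These intervals also include the shares of other genes. Large-subunit genes that RefSeq does not name as such are missing from the 20. Of 7 genes for RACK1, a scaffold protein bound to the small subunit, and for the TOR and S6 kinase pathway, 1 had a promoter peak. It was the RACK1 gene AT3G18130, with an L1 fold of 8.08. That is 14.3% of the 7 in L1 (interval 2.57 to 51.3), against 8.67% of other genes. With any assigned peak counted, 4 of the 7 had one in L1 (57.1%, interval 25 to 84.2) and 2 in L4 (28.6%, 8.22 to 64.1), and the intervals include the shares of other genes. Gene body peaks were at 3 in L1 (42.9%, 15.8 to 75), against 12.6%, and at 2 in L4 (28.6%, 8.22 to 64.1), against 12.5%. In both lines 2 had one (28.6%, 8.22 to 64.1), against 5.97%. For body peaks the L1 interval and the interval for both lines lie above the shares of other genes. Gene length was not taken into account. TOR had overlapping peaks inside the gene, with an L1 fold of 13.05 and an L4 fold of 14.79. The RACK1 gene AT1G48630 had overlapping peaks across its 3′ end, with 6.27 in L1 and 19.57 in L4. S6K2 had an L1 peak inside the gene with a fold of 9.92.

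**Figure D4:**
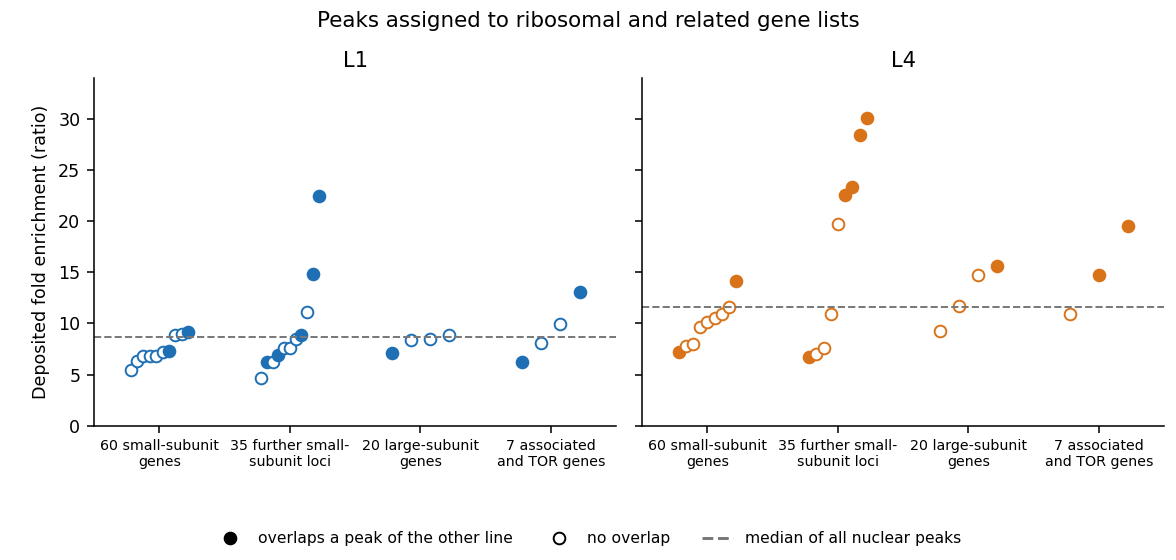
Deposited fold enrichment of every peak assigned to the 60 small-subunit genes, 35 further small-subunit loci, 20 large-subunit genes and 7 associated or TOR pathway genes in L1 and L4, 1 circle per peak, filled where it overlaps a peak of the other line. Folds above 20 appear in the list of 35 loci in both lines and in no other list shown, and the dashed line is the nuclear median of the list, 8.72 for L1 and 11.65 for L4.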

How the data were processed

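Peaks of anti-GFP chromatin immunoprecipitation were used from 1 deposited list per line (L1, L3, L4). The peak caller was MACS2, per the submitters' processing notes. How it was run, on which alignments, against which control and whether on pooled samples is not given in the sources used here. Pileup (a signal in fragments), fold enrichment (a ratio) and −log10 p and q are the authors' deposited values, per the file headers, and were compared within a list. Genes were assigned by the authors to the nearest location, per the file headers, which was not always a gene that the peak overlapped.

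Peaks listed for several genes were counted once. Promoter, body and 3′ end classes were computed from the deposited positions, with an overlap of at least 1 bp. A fold percentile is the share of nuclear peaks of the list with a lower fold, ties counted by their midpoint. Gene names were looked up in RefSeq (TAIR10.1 assembly), whose coordinates were not used. No test was run: lists have no replicates, and shares have 95% Wilson intervals, for counting error only. The members and lists were chosen with earlier results of these data known. The text names each of the 60 genes with an assigned peak, and of other lists mainly members with promoter peaks. AT3G56340, TOR, AT1G48630 and S6K2 were named after their values were seen. Large-subunit genes were found by RefSeq name, leaving out plastid and mitochondrial products. Classes and overlaps were tested on simulated data in Python 3.11.15 with pandas 2.3.3, scipy 1.17.1 and numpy 2.4.6; figures used matplotlib 3.10.9. Promoter sequences were not analysed here.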

Additional observations from a re-analysis of the deposited data

How the results depend on the processing

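No paired analysis was possible because the values come from 1 list for each line without columns for replicates, so none could be left out either. Windows of 2000 bp upstream to 200 bp downstream, a wider 3′ window, a limit of 3000 bp and a required overlap of promoter peaks between lines left the counts within 1.5 times. With the summit inside the region, 1 gene had a body peak in both lines. In the upper 50% of peaks by fold, 3 genes had any peak in L1, 1 in L4 and 1 in both. Promoter peaks then numbered 2 in L1 and 1 in L4, and body peaks 1 in L1, 0 in L4 and 0 in both. No gene had a 3′ end peak in that upper part (0 in L1, 0 in L4 and 0 in both). Other genes also lose peaks under this cut. Their share was not counted, so these counts are not a comparison with other genes. With the 35 further loci added, 19 genes had any peak in L1, 16 in L4 and 7 in both. Promoter peaks then numbered 9, 7 and 4, body peaks 8, 10 and 4, and 3′ end peaks 6, 7 and 2, in the same order, from more genes by construction. For any peak, the 35 loci alone had shares of 28.6% in L1, 25.7% in L4 and 14.3% in both. The 60 genes had 15%, 11.7% and 3.33%, and other genes 25.7%, 24.5% and 14.3%. Adding the 35 loci thus moves the shares for any peak toward those of other genes. For promoter, body and 3′ end peaks the shares of the joined list were not computed. Peaks over the genes whichever gene they were assigned to, an alternative chosen after seeing the data, gave 4 genes with a 3′ end peak in L1 and 2 in both. Depth per sample is unknown, so a missing peak sets no limit on binding.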
